A study of Rattus norvegicus with 10 samples.

Results

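Cell cycle and DNA replication genes were followed in cells labelled as rat A7r5 cells that stably carried an empty vector or a form of BMPR2, the type II bone morphogenetic protein receptor. The group was a list of 40 genes, and its members were all probe sets whose platform annotation named 1 gene only and that gene was on the list. This gave 53 of the 31042 probe sets that were not array controls, for 37 of the 40 genes, out of 14217 genes named by single-gene probe sets on the array. The members were kept in 3 classes: 9 DNA replication genes with 9 probe sets, 8 regulators of the passage from G1 into S phase with 12, and 20 mitotic genes with 32. Rrm2, Cdc6 and Tpx2 were not analysed here, and the only probe sets for Rrm2 also named Rrm2l1.

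Each group had 2 arrays: KD mutant BMPR2 (C994T, in the kinase domain), ED mutant BMPR2 (T354G, in the extracellular domain), CD mutant BMPR2 (2579-2580delT, in the cytoplasmic tail), wild-type human BMPR2, and empty vector. The sample titles call the empty vector arrays native A7r5 expression, while their descriptions state stable transfection with empty vector, which is followed here, and every comparison with empty vector rests on these 2 arrays. All 5 groups were A7r5 cells, a rat vascular smooth muscle line, grown in normoxia with 10% serum and collected at about 50% confluence. The labels do not say whether a group was 1 clone or a pool, or whether its arrays came from separate cultures, so the p-values rest on a spread between arrays that may be technical only. The cells still have their own Bmpr2 gene, and the labels do not give the promoter that drives the construct.

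Cells commit to division in G1, when D-type cyclins with Cdk4 and cyclin E with Cdk2 release E2F transcription factors, which switch on genes for DNA synthesis. Mcm proteins form the helicase that opens origins, Pcna clamps the polymerase to DNA, and Rrm1 and Tyms supply nucleotides. In G2 and mitosis a later wave of genes follows, including B cyclins, Cdk1, mitotic kinases and motors, spindle checkpoint proteins, and Cdc20, which targets cyclin B for destruction. BMP signalling in vascular smooth muscle is known mainly for restraining growth. In bulk RNA, fewer cycling cells and less RNA in each cycling cell cannot be told apart.

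The 2 waves are known for different promoter elements, so the promoters of members on which the results turn are shown. A window of 250 bases before to 50 after the gene start was found in RefSeq (GRCr8) for 29 of the 40 listed genes. The start of the window matched the annotated boundary of the gene for 19339 of all 33469 windows, and for the others it lay elsewhere. Each sequence below is the 250 bases upstream, 5′ to 3′ on the gene's strand, which is the minus strand for all 4. Capitals mark matches on either strand to an E2F element (spelled TTGGCGC here, or with the other forms TTCCCGC and likewise TTGCCGC and also TTCGCGC), to a cell cycle homology region or CHR (TTTGAA, or in its second form TTCGAA), or to a CCAAT box, and neighbouring matches can share bases. Cdc20 (chr5:137255800-137256049) and Ccnb2 (chr8:79981659-79981908) are mitotic genes that were lower on the KD mutant arrays. Mki67 (chr1:199952594-199952843) is a mitotic gene and Mcm2 (chr4:122918095-122918344) a replication gene that were higher there.
Cdc20: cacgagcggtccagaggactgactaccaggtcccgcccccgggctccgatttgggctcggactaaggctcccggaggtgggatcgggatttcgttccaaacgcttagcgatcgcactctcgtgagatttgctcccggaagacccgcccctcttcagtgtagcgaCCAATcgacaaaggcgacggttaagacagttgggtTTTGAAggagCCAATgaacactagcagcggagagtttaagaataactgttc
Ccnb2: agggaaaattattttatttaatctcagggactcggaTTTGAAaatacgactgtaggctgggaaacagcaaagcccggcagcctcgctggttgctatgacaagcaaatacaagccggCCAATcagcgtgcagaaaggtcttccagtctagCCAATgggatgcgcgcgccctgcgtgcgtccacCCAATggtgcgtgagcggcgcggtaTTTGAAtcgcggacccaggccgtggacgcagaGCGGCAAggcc
Mki67: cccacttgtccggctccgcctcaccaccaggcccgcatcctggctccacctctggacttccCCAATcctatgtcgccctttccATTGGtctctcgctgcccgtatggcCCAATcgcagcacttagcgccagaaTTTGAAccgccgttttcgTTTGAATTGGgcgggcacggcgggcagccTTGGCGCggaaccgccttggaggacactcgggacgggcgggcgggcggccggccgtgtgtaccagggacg
Mcm2: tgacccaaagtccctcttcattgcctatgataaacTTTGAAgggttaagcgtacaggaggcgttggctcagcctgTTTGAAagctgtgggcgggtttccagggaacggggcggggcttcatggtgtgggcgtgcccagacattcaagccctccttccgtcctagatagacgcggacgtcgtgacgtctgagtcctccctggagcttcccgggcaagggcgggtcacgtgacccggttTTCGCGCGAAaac
The replication and mitotic promoters differed in E2F elements and CHRs but not in CCAAT boxes. A CCAAT box was present in 6 of 8 replication promoters (75%) and 13 of 17 mitotic promoters (76.5%), against 37.5% of all promoters. A CHR was present in 3 of 8 (37.5%) and 12 of 17 (70.6%), against 19.7% of all. An E2F element was present in 7 of 8 replication promoters (87.5%) and in 3 of 17 mitotic promoters (17.6%), against 9.52% of all 33469 promoters. A CCAAT box together with a CHR was present in 2 of 8 replication promoters (25%) and 10 of 17 mitotic promoters (58.8%), against 7.95% of all. Of the 4 G1/S promoters found, 1 held an E2F element and 0 held a CHR. Both lower genes, Cdc20 and Ccnb2, and the higher Mki67 held a CCAAT box and a CHR, so these letters were found in members of both directions. These are matches of letters in a window, described without a test.

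Values are the deposited log2 probe set levels, so a difference of 1 is a 2-fold change. Of the 53 member probe sets, 50 reached log2 4.82, the 40th percentile of all values, on at least 2 arrays and were tested, and all 37 genes kept at least 1. The 3 left out were 2 of the 5 Cdc20 probe sets and 1 of the 2 Kif11 probe sets. The KD mutant arrays stood apart from the other 8 across the whole array. They correlated with the other 8 at r = 0.712 to 0.721 over probe sets, while the other 8 correlated with each other at 0.992 to 0.996, and their medians were 4.94 to 4.95 against 5.32 to 5.36. The arrays also differed in cell type markers. The summed level of 7 smooth muscle markers was 51.9 to 53.1 on the KD mutant arrays and 36.0 to 37.1 on the other 8, where 3 of the 7 stayed below log2 4.82 on every array. On the KD mutant arrays 5 of the 7 were above all other 8, while Myh11 (6.92 and 6.98) and Lmod1 (3.94 and 3.70) overlapped them. Lmod1 and Myocd were below log2 4.82 on the KD mutant arrays too. Tagln, 1 of these 7 markers, measured 11.15 and 11.51 on the KD mutant arrays and 4.82 to 5.19 on the other 8. The summed level of 6 epithelial markers was 35.0 to 35.6 on the KD mutant arrays and 45.2 to 48.1 on the other 8. Of these 6, 4 were below all other 8 on the KD mutant arrays, and Krt8 and Cldn4 overlapped. By their brightest probe sets, Cdh1, Krt18 and Krt19 measured 9.22 to 10.27, 11.26 to 11.82 and 9.03 to 9.81 on the other 8. On the KD mutant arrays they measured 6.0 and 5.74, 9.28 and 9.34, and 5.88 and 6.10. Epcam and Cldn4 were below log2 4.82 on every array. The smooth muscle markers of the labelled cell type were thus mixed on the other 8 arrays: Tagln was low, Cnn1, Myocd and Lmod1 were below log2 4.82 on all 8, and Acta2 and Des at 6.01 to 6.41 and Myh11 at 6.55 to 7.13 were not. Of 6 fibroblast markers, each by its brightest probe set, 3 collagens were above all other 8 arrays on the KD mutant arrays and 3 genes below, with a sum of 47.3 to 47.5 against 30.3 to 32.1. The 4 measured endothelial markers summed to 12.9 to 14.3 against 15.6 to 16.6. Of 4 haematopoietic markers 1 was above and 3 below, with a sum of 20.1 to 20.6 against 20.1 to 21.0. Whether the cells on each array match their label was not tested, nor was the part of these differences in the values below. Results are therefore given first for the 4 groups without the KD mutant arrays.

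Among ED mutant, CD mutant, wild-type and empty vector cells, no member passed the test. In all 6 comparisons between these groups, 0 of the 50 member probe sets had an adjusted p under 0.05 with limma. The background was also low: 0.529% of all 22502 tested probe sets passed for ED mutant against empty vector, 0.351% for ED against CD mutant, 0.164% for ED mutant against wild type, 0.111% for CD mutant against empty vector, 0.0133% for wild type against empty vector, and 0% for CD mutant against wild type. At an unadjusted p under 0.05 the members numbered 6, 2, 1, 2, 4 and 1 of 50 in the same order, against 11.4%, 9.39%, 7.65%, 8.74%, 6.54% and 3.48% of all tested probe sets. Fits with an intensity trend and robust variance called 1 member in CD mutant against empty vector and 1 in ED mutant against empty vector, both named below. The median half-width of the 95% interval of a member was 0.264, and all 50 intervals lay within 2-fold in all 6 comparisons. Within 1.5-fold lay 44 intervals for ED mutant against empty vector, 48 for ED against CD mutant, 47 for ED mutant against wild type, 48 for CD mutant against empty vector, 46 for wild type against empty vector and 50 for CD mutant against wild type. Differences of dim probe sets are compressed on this scale, so these limits hold for the measured values.

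**Figure D1:**
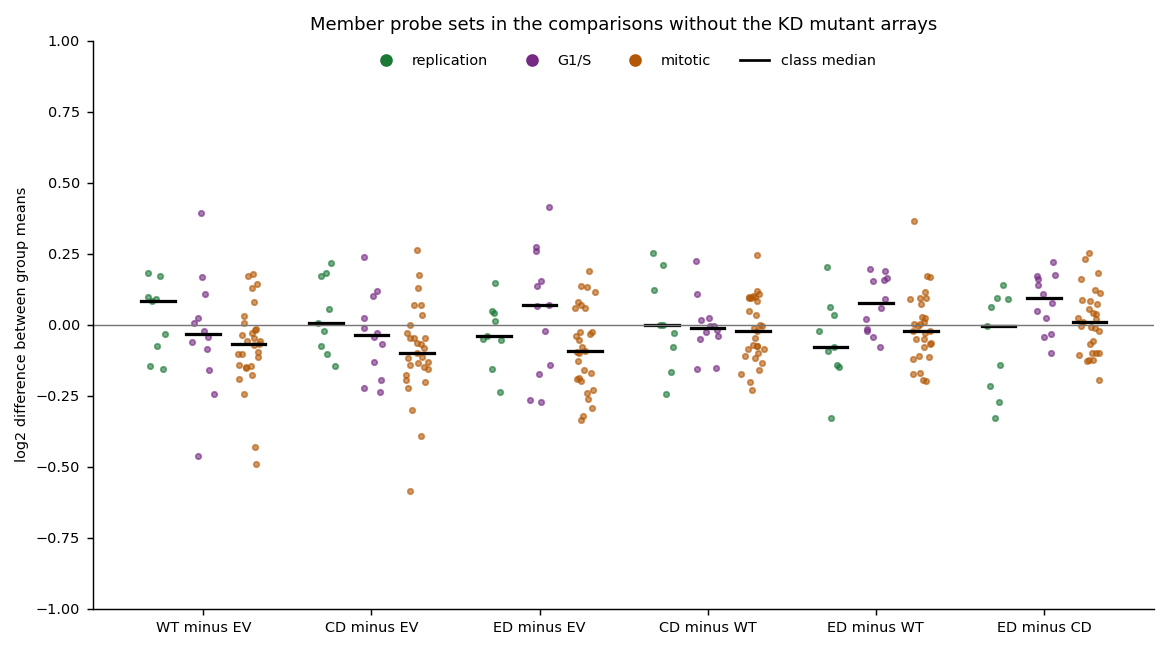
Log2 difference between group means for the 50 tested member probe sets in the 6 comparisons without the KD mutant arrays, by class; each point is 1 probe set and each black bar a class median. No point passed the adjusted test, and all lie between -0.59 and 0.41.

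Of the 9 replication genes, 0 passed in any of these comparisons. Pcna, the sliding clamp and the brightest of the class, measured 11.68 and 11.81 in ED mutant, 11.72 and 11.64 in CD mutant, 11.73 and 11.70 in wild-type and 11.77 and 11.80 in empty vector cells. These values overlapped between all 4 groups except that both empty vector arrays were above both wild-type and both CD mutant arrays. The helicase subunits Mcm3 and Mcm7 ranged over the same 8 arrays from 7.15 to 7.48 and from 7.49 to 7.71. Mcm5 measured 6.50 and 6.31 in ED mutant cells and 6.75 and 6.70 in CD mutant cells, a difference of -0.33 with a 95% interval of -0.70 to 0.05. Mcm4 measured 9.40 and 9.44 in ED mutant cells and 9.54 and 9.86 in CD mutant cells, a difference of -0.27 with an interval of -0.53 to -0.02 before adjustment (adjusted p = 0.50). The class median difference was -0.04 for ED mutant, 0.00 for CD mutant and 0.08 for wild type, each against empty vector.

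Among the G1/S regulators, Ccnd1, a D-type cyclin induced by growth signals, had 1 probe set of 3 that stood apart from empty vector. Its probe set 1371150_at measured 12.65 and 12.39 in ED mutant, 12.40 and 12.29 in CD mutant and 12.60 and 12.40 in wild-type cells, against 12.01 and 12.21 in empty vector cells. The 6 arrays with a BMPR2 construct were all above both empty vector arrays. The difference from empty vector was 0.41 for ED mutant (SE 0.13, adjusted p = 0.226), 1.33-fold, and 0.39 for wild type (adjusted p = 0.569). The ED mutant difference passed under the trend and robust fit (adjusted p = 0.0391), where 2.19% of all tested probe sets passed. The other 2 Ccnd1 probe sets did not share the pattern: 1383075_at, the brightest of the class, ran from 12.67 to 12.84 and 1371643_at from 12.15 to 12.37 over the 8 arrays, with empty vector at 12.70 and 12.77 and at 12.21 and 12.22.

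Ccne2, a cyclin E that partners Cdk2, was lower than empty vector on the 6 arrays with a BMPR2 construct in both of its probe sets. On 1391681_at it measured 4.95 and 4.87 in ED mutant, 4.89 and 5.0 in CD mutant and 4.71 and 4.73 in wild-type cells, against 5.27 and 5.10 in empty vector cells. The difference for wild type was -0.46 (SE 0.12), the lowest adjusted p of any member there at 0.378. This probe set lies close to log2 4.82. Ccnd3, another D-type cyclin, measured 7.17 and 7.14 in ED mutant cells and 6.85 and 6.92 in empty vector cells, a difference of 0.27 (adjusted p = 0.322).

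Among the mitotic genes, Ccnb1, the cyclin that activates Cdk1 at mitotic entry, was nearest to a call. On 1370345_at it measured 8.76 and 8.74 in ED mutant, 8.42 and 8.58 in CD mutant and 8.76 and 8.55 in wild-type cells, against 9.17 and 9.01 in empty vector cells. All 6 arrays with a BMPR2 construct were below both empty vector arrays. The difference was -0.34 for ED mutant (adjusted p = 0.357), -0.59 for CD mutant (SE 0.13, adjusted p = 0.185), 1.5-fold lower, and -0.43 for wild type (adjusted p = 0.540). The CD mutant difference passed under the trend and robust fit (adjusted p = 0.0272), where 0.64% of all tested probe sets passed. The second Ccnb1 probe set, 1370346_at, measured 6.26 to 6.50 over all 8 arrays, with empty vector at 6.47 and 6.48. Cdc20, the activator of the anaphase-promoting complex, measured 11.47 and 11.35 in ED mutant, 11.40 and 11.37 in CD mutant, 11.51 and 11.41 in wild-type and 11.64 and 11.58 in empty vector cells on 1394113_at, the brightest of the class. Its 6 arrays with a construct were again below both empty vector arrays, by small steps, and no difference passed.

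Arrays of the 3 construct groups without the KD mutant lay entirely below the empty vector arrays for 7 of 50 member probe sets (14%), against 7.32% of all tested probe sets, and entirely above for 3 (6%), against 6.19%. The 7 were Ccnb1, Ccne1, 2 of Ccne2, 2 of Cdc20 and the spindle checkpoint gene Mad2l1, and the 3 were Ccnd1, Ccnd3 and the checkpoint kinase Ttk. This pattern was looked for after the values were seen, rests on the same 2 empty vector arrays throughout, and has no test. The median difference of the 29 tested mitotic probe sets from empty vector was -0.09 for ED mutant (21 below 0), -0.10 for CD mutant (23 below 0) and -0.07 for wild type (22 below 0), all with the same empty vector arrays, while the medians of all tested probe sets were between -0.01 and 0.01. This lean was not particular to mitotic members. In the wider lists described below, the ED mutant medians were -0.09 for replication (46 of 64 below 0), -0.08 for mitotic genes (58 of 73) and -0.08 for regulators (32 of 51). Entirely below empty vector lay 14.1%, 15.1% and 15.7% of these lists, and entirely above 1.56%, 2.74% and 1.96%. The G1/S members had an ED mutant median of 0.07. A share below 0 over all tested probe sets was not counted.

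KD mutant cells differed from wild-type cells at most members, as they did at most probe sets of the array. Of the 50 member probe sets, 30 were higher and 12 lower in KD mutant cells and 8 did not pass, against a background of 89.6% called over all tested probe sets, 34.5% higher and 55.1% lower. By genes, 26 had a probe set that was higher and 8 a probe set that was lower, with Ccnb1 and Mad2l1 in both. Against empty vector the members split 29 higher and 11 lower (89.7% called over all), and against the mean of the other 4 groups 31 and 12 (91.5%, 35.4% higher and 56.2% lower), comparisons that share the KD mutant arrays. With so many calls over the whole array, a call says little of any 1 member. Both KD mutant arrays lay above all 8 other arrays for 31 of the 50 member probe sets (62%), against 34.6% of all tested, and below all 8 for 11 (22%), against 54.9%. The median difference from wild type was 0.62 for members, against -0.56 for all tested probe sets. The shares above and these medians include probe sets that were tested only because they were high on the KD mutant arrays. For those, lying above the other arrays was largely set by the filter. Separation of the arrays was not counted over probe sets bright on both sides. The class medians were 1.22 for mitotic, 0.63 for replication and 0.27 for G1/S probe sets. Over probe sets bright on both the KD mutant and the other arrays the order differed, with 0.36, 0.16 and 0.74. After quantile normalization the replication median was -0.03.

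Part of the count is set by the filter. For 12 of the 30 higher member probe sets the level of log2 4.82 was reached on both KD mutant arrays and on fewer than 2 of the other 8, so they were tested only because they were high there and had to differ, and their differences are given as a description with no test: Aurkb, Ccna2, Kif11, 2 of Mad2l1, Mcm2, Mki67, Rrm1, 1 of Top2a, 2 of Ttk, and Tyms. Likewise, 2 of Ccne2 and 1 of Foxm1 passed through the other arrays alone, which favours a lower KD mutant level, and are given without a test. On Ccne2 1391681_at and Foxm1 1398470_at both wild-type arrays were also below log2 4.82, so a fall against wild type was not fixed in advance. Leaving out KD mutant replicate 1 or 2 left 40 tested members, since those of the 12 that were dim on all 8 other arrays then had 1 bright array (Mcm2 and 1 Mad2l1 probe set had another), with 19 and 20 higher and 10 and 12 lower. The mitotic median difference was then 0.15 and 0.37, and the replication median 0.30 and 0.16. Of the 35 member probe sets that were bright on both sides, 18 were higher and 9 lower in KD mutant cells (51.4% and 25.7%), against 41.3% and 42.7% of the 13205 such probe sets on the array.

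Direction also depended on how the arrays were scaled. Members split 30 higher and 12 lower on the deposited values (71.4% of calls higher), 26 and 17 after quantile normalization (60.5%), and 38 and 5 with each array centred on its median (88.4%), while the median of all tested probe sets was -0.56, -0.46 and -0.10. Under all 3 scalings 25 member probe sets of 22 genes were higher and 5 of 4 genes lower. The 25 include every member probe set that passed the filter through the KD mutant arrays alone, which had to be higher. The 5 include a Ccne2 probe set that passed through the other arrays alone. The share of such calls over all tested probe sets was not counted, so these counts have no background. For Pcna, Mcm3, Mcm4 and Mcm6, 1 Ccnd1 probe set and 1 Cdc20 probe set, the call was higher under one scaling and lower under another.

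**Figure D2:**
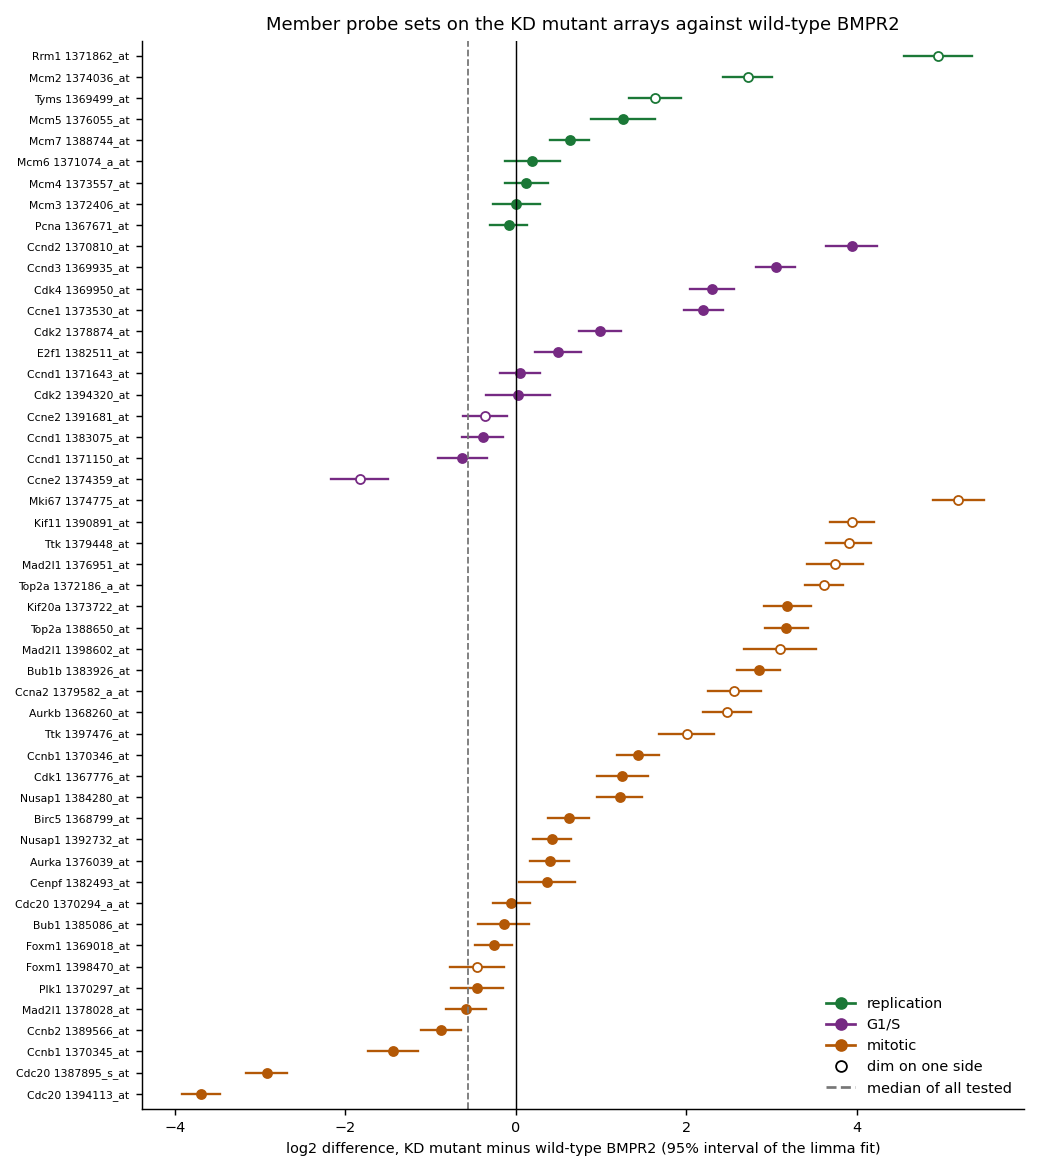
Log2 difference of KD mutant minus wild-type cells for each tested member probe set, by class, with 95% intervals; the dashed line is the median of all 22502 tested probe sets at -0.56. Open circles are probe sets below log2 4.82 on at least 7 of the other 8 arrays or on a KD mutant array; the largest differences run from 5.19 (Mki67) to -3.69 (Cdc20).

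In the replication class, 5 of 9 genes were higher in KD mutant than in wild-type cells, 0 were lower and 4 did not pass. These shares were 55.6% and 0%, against 34.5% higher and 55.1% lower over all tested probe sets. Of the 5, Rrm1, Tyms and Mcm2 were tested only because they were high on the KD mutant arrays, so the share higher is partly set by the filter. Among the genes bright on both sides, Mcm5 and Mcm7 were higher, and Mcm3, Mcm4, Mcm6 and Pcna did not pass. Rrm1, the large subunit of ribonucleotide reductase, measured 8.15 and 8.62 in KD mutant cells, against 3.25 and 3.61 in wild-type cells. It was below log2 4.82 on all 8 other arrays, which ran from 3.25 to 3.77 with a median of 3.45. The difference of 4.95 is against a level under the filter. Tyms, thymidylate synthase, measured 5.51 and 5.89 in KD mutant cells, against 4.13 and 4.0 in wild-type cells, and was likewise dim on all 8 other arrays. Both passed the filter through the KD mutant arrays alone, so their differences are a description with no test.

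The 6 helicase subunits did not move together. Mcm2 measured 7.32 and 7.69 in KD mutant cells, against 4.70 and 4.87 in wild-type cells, a difference of 2.72 against a level near the filter. Mcm5 measured 7.77 and 8.20 in KD mutant cells, against 6.75 and 6.71 in wild-type cells, a difference of 1.26 (adjusted p = 1.77e-05). The Mcm5 call held under all 3 scalings, while Mcm2 passed the filter through the KD mutant arrays alone and is given without a test. Mcm7 measured 8.44 and 8.22 in KD mutant cells and 7.69 and 7.71 in wild-type cells, a difference of 0.63 (adjusted p = 0.000112) on the deposited values that was not called after quantile normalization. Mcm3 (7.20 and 7.50 in KD mutant, 7.39 and 7.30 in wild-type cells), Mcm4 (9.61 and 9.53, against 9.48 and 9.42) and Mcm6 (7.60 and 7.81, against 7.49 and 7.54) did not pass, with differences of 0.01, 0.12 and 0.19. Pcna measured 11.59 and 11.66 in KD mutant cells and 11.73 and 11.70 in wild-type cells and did not pass either (-0.09, adjusted p = 0.422). For Mcm3, Mcm4, Mcm6 and Pcna the sign of the call turned between scalings.

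**Figure D3:**
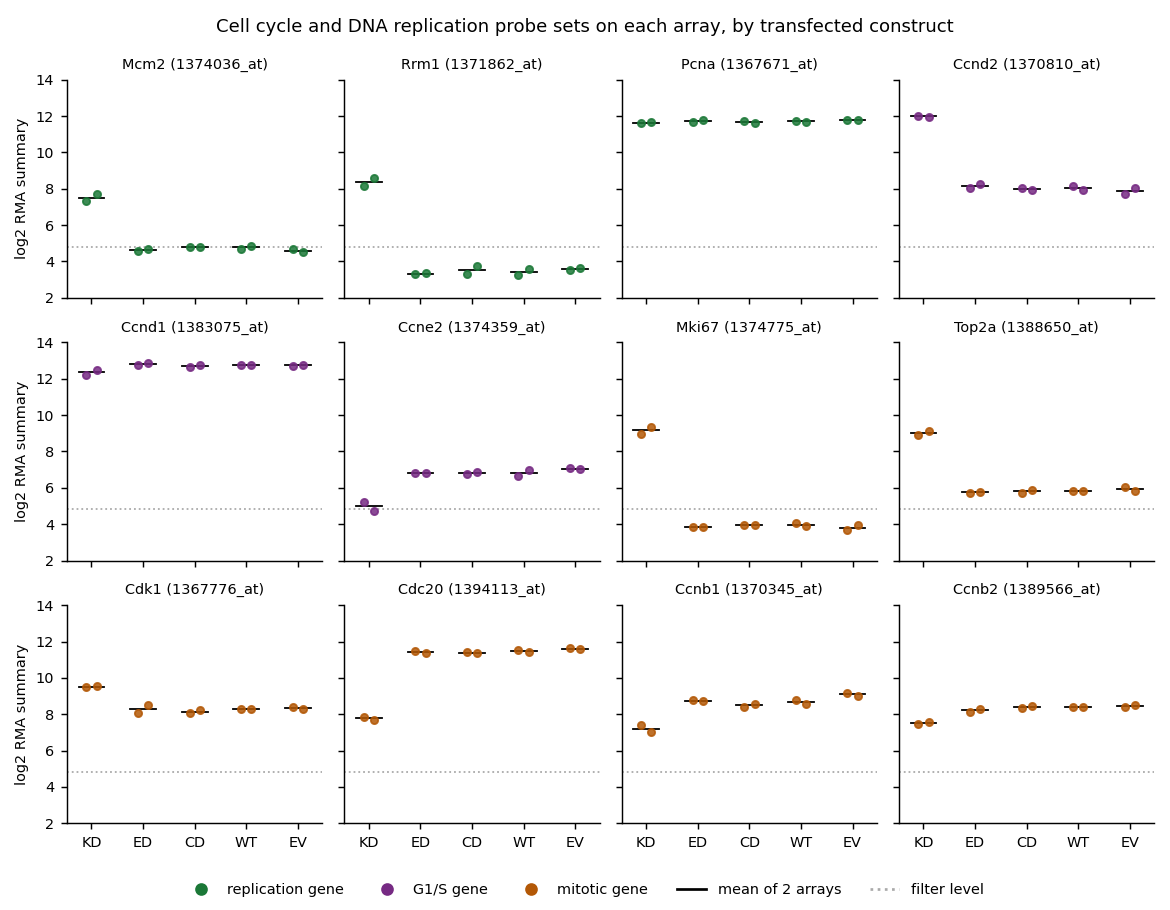
Log2 level of 12 members, each by its brightest probe set, on each of the 10 arrays, with groups from KD mutant on the left to empty vector on the right; bars are the mean of the 2 arrays and the dotted line is log2 4.82. Mki67 and Rrm1 lie below the dotted line on all 8 arrays outside KD mutant, Pcna lies between 11.59 and 11.81, and Cdc20 is lower on the KD mutant arrays.

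Among the 12 G1/S probe sets, 6 were higher and 4 lower in KD mutant than in wild-type cells. These shares were 50% and 33.3%, against 34.5% and 55.1% of all tested probe sets. The lower ones include both Ccne2 probe sets, which passed the filter through the other arrays alone. Ccnd2, a D-type cyclin, measured 12.02 and 11.96 in KD mutant cells, against 8.15 and 7.93 in wild-type cells, a difference of 3.94 (SE 0.14, adjusted p = 9.44e-11). The other 8 arrays ran from 7.70 to 8.25 and were bright throughout, so this difference was measured on both sides. Ccnd3 measured 9.96 and 10.12 in KD mutant cells and 7.0 and 6.99 in wild-type cells, a difference of 3.05. Their partner kinase Cdk4 measured 11.71 and 11.94 in KD mutant cells and 9.51 and 9.54 in wild-type cells, a difference of 2.30. Ccnd2, Ccnd3 and Cdk4 were called higher under all 3 scalings.

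The third D-type cyclin and the second E-type cyclin went the other way. Ccnd1 measured 11.96 and 11.79 in KD mutant cells and 12.60 and 12.40 in wild-type cells on 1371150_at (-0.63, adjusted p = 0.000624), and 12.23 and 12.47, against 12.75 and 12.74, on 1383075_at (-0.39, adjusted p = 0.00504). Neither Ccnd1 call held with arrays centred, and 1371643_at did not pass on the deposited values. Ccne1 measured 9.74 and 9.78 in KD mutant cells and 7.58 and 7.55 in wild-type cells, a difference of 2.2 (adjusted p = 1.62e-09). Ccne2 measured 5.22 and 4.74 in KD mutant cells and 6.66 and 6.97 in wild-type cells on 1374359_at, a difference of -1.83. The Ccne1 call held under all 3 scalings. Both Ccne2 probe sets passed the filter through the other arrays alone, so their differences are given without a test. On 1391681_at Ccne2 differed by -0.37 on the deposited values, 0.17 after quantile normalization and 0.03 with arrays centred. E2f1, a transcription factor of the G1/S switch, was 0.49 higher (adjusted p = 0.00237) on the deposited values and was not called after quantile normalization. Cdk2 was higher on 1378874_at (0.99) and did not pass on 1394320_at (0.03).

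Of the 29 tested mitotic probe sets, 19 were higher and 8 lower in KD mutant than in wild-type cells. These shares were 65.5% and 27.6%, against 34.5% and 55.1% of all tested probe sets. The counts include probe sets that passed the filter through 1 side alone, so the shares are partly set by the filter and show no excess of the class. Mki67, the Ki-67 protein that coats mitotic chromosomes and marks cycling cells, is one of the members that were dim outside KD mutant cells. It measured 8.98 and 9.36 in KD mutant cells, against 4.06 and 3.89 in wild-type cells, a difference of 5.19. On the other 8 arrays Mki67 ran from 3.66 to 4.06, below log2 4.82 on each. Kif11, a spindle motor, measured 7.77 and 7.97 in KD mutant cells and 4.01 and 3.83 in wild-type cells on 1390891_at (a difference of 3.95). Its untested probe set 1385619_at did not share a rise of this size, at 4.80 and 5.19 in KD mutant cells and 4.74 and 4.70 in wild-type cells. Ttk, a spindle checkpoint kinase, measured 6.97 and 7.11 in KD mutant cells and 3.20 and 3.07 in wild-type cells on 1379448_at (a difference of 3.90). Mki67, Kif11 and Ttk were dim on all 8 other arrays, so the low side of each is at or under the filter level and the differences may be compressed.

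Mitotic members that reached log2 4.82 on at least 2 of the other 8 arrays were also among the higher ones, Bub1b only just. Top2a, the topoisomerase that untangles replicated chromosomes, measured 8.88 and 9.11 in KD mutant cells and 5.84 and 5.81 in wild-type cells on 1388650_at, a difference of 3.17 (adjusted p = 1.36e-10). Kif20a, a motor of cytokinesis, measured 8.92 and 8.86 in KD mutant cells and 5.72 and 5.69 in wild-type cells, a difference of 3.19. The checkpoint kinase Bub1b measured 7.76 and 7.55 in KD mutant cells and 4.70 and 4.92 in wild-type cells, a difference of 2.85. Cdk1, the mitotic kinase itself, measured 9.48 and 9.57 in KD mutant cells and 8.29 and 8.26 in wild-type cells, a difference of 1.25 (adjusted p = 2.34e-06). Top2a, Kif20a, Bub1b and Cdk1 were called higher under all 3 scalings. Aurora kinase Aurka (0.40) and the survivin gene Birc5 (0.62) were higher on the deposited values and were not called after quantile normalization.

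Cdc20 had the largest fall of any member. On 1394113_at it measured 7.83 and 7.71 in KD mutant cells, against 11.51 and 11.41 in wild-type cells, a difference of -3.69 (SE 0.10, adjusted p = 1.47e-11). On 1387895_s_at it measured 7.71 and 7.81 in KD mutant cells and 10.78 and 10.59 in wild-type cells, a difference of -2.92 (SE 0.11, adjusted p = 2.03e-10). Both probe sets were lower on the KD mutant arrays than on any of the other 8. Probe set 1370294_a_at for Cdc20 showed no call, at 6.90 and 6.98 in KD mutant cells and 6.95 and 7.03 in wild-type cells, and its call turned sign between scalings. Ccnb2, a second B cyclin, measured 7.45 and 7.59 in KD mutant cells and 8.42 and 8.39 in wild-type cells, a difference of -0.88 (SE 0.11, adjusted p = 7.36e-06). The falls of Ccnb2 and of the 2 bright Cdc20 probe sets held under all 3 scalings. Plk1, a mitotic kinase, had a difference of -0.46 (adjusted p = 0.00842), and Foxm1, a transcription factor that drives mitotic genes, had differences of -0.26 and -0.46 on its 2 probe sets, but neither gene was called with arrays centred. Bub1 did not pass (-0.14, adjusted p = 0.324).

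Several members gave different answers on different probe sets. Ccnb1 measured 7.38 and 7.04 in KD mutant cells and 8.76 and 8.55 in wild-type cells on 1370345_at (-1.45, SE 0.13, adjusted p = 5.55e-07), but 7.89 and 7.72 in KD mutant cells and 6.26 and 6.48 in wild-type cells on 1370346_at (1.43, adjusted p = 1.42e-07). Both Ccnb1 calls held under all 3 scalings, so the direction of Ccnb1 in KD mutant cells was not settled. Mad2l1 had differences of 3.10 and 3.74 on 1398602_at and 1376951_at, and -0.58 on 1378028_at, of which the fall was not called with arrays centred. Among the 10 member genes with several tested probe sets, 2 were called both ways against the mean of the other 4 groups (20%), against 1211 of 3376 genes on the whole array (35.9%).

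**Figure D4:**
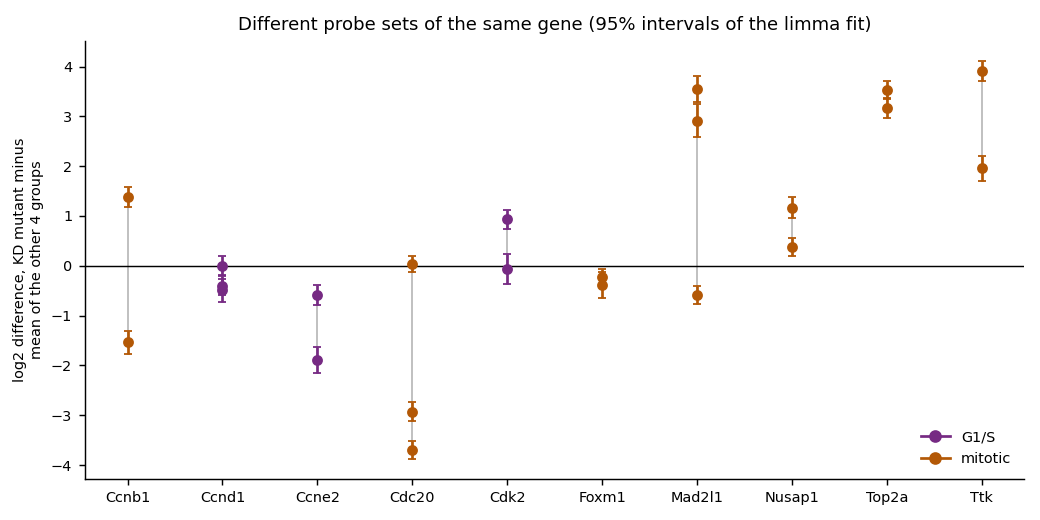
Log2 difference of KD mutant cells minus the mean of the other 4 groups for the 10 member genes with several tested probe sets; each point is 1 probe set with its 95% interval, and a grey line joins the probe sets of a gene. The points of Ccnb1 and Mad2l1 lie on both sides of 0.

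Outside the KD mutant arrays, the members varied little, on 8 arrays that correlated with each other at 0.992 to 0.996 over all probe sets. The median SD of a member probe set over the 8 other arrays was 0.118 on the log2 scale, and the widest range was 0.964, of Mad2l1. Of the 53 member probe sets, 34 were at or above log2 4.82 on all 8 of these arrays and 13 were below it on all 8. The 13 were Rrm1, Tyms, Aurkb, Ccna2, 2 of Cdc20, 2 of Kif11, 1 of Mad2l1, Mki67, 1 of Top2a and 2 of Ttk. On both KD mutant arrays 47 of the 53 were at or above that level. The same spread and shares over all probe sets were not counted, so these values have no background.

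Wider lists of genes with related roles were read in the same way. Among 64 tested probe sets of other replication and repair genes, 0 passed with limma in the 6 comparisons without KD mutant cells, and 2 to 9 of them had an unadjusted p under 0.05, where the share of all tested probe sets was 3.48% to 11.4%. Among 73 of other mitotic genes, 1 passed: Espl1, the separase that cuts cohesin at anaphase, measured 8.55 and 8.41 in ED mutant cells and 9.26 and 9.06 in empty vector cells (-0.68, adjusted p = 0.0224). Wild-type cells at 8.86 and 8.73 and CD mutant cells at 8.92 and 8.87 lay between them. The Espl1 call was lost when any of the 4 arrays was left out (adjusted p = 0.0669 to 0.308) or when only these groups were fitted (0.0512). Among 51 of other regulators, 1 passed: Myc, a growth-promoting transcription factor, measured 8.23 and 8.22 in ED mutant cells and 8.86 and 8.78 in CD mutant cells (-0.59, adjusted p = 0.0482), with wild type at 8.59 and 8.52 and empty vector at 8.74 and 8.64. The Myc call was lost when any of the 4 arrays was left out (adjusted p = 0.177 to 0.329), with no filter (0.0774), with arrays centred (0.0515), under the replicate block (0.0515) or when only these groups were fitted (0.0844).

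In KD mutant against wild-type cells the wider lists were called in both directions, and their median differences on the deposited values were 0.07 for replication, 0.40 for mitotic genes and -0.14 for regulators, against -0.56 for all tested probe sets. Of the wider replication probe sets 28 were higher and 23 lower (43.8% and 35.9%), against 34.5% and 55.1% of all tested probe sets. Of the 51 bright on both sides 21 were higher and 17 lower (41.2% and 33.3%), against 41.3% and 42.7% of all such probe sets. Probe sets that passed the filter through the KD mutant arrays alone had to be higher, and these include Rpa1, Uhrf1, 2 of 3 for Orc6, Cenpk, Smc2, Cdk7 and Lin54. Rpa1, which coats single-stranded DNA, measured 8.06 and 8.12 in KD mutant cells and 3.89 and 3.90 in wild-type cells. Orc6, a subunit of the origin recognition complex, was higher on all 3 of its tested probe sets (1.26, 1.29 and 3.75), and Uhrf1, which keeps DNA methylation at forks, measured 8.18 and 7.93 in KD mutant and 4.38 and 4.43 in wild-type cells. Cdc45, a helicase cofactor, was lower on 3 probe sets (-1.55, -2.19 and -2.42) and higher on 1 (0.53).

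Of the wider mitotic probe sets 37 were higher and 26 lower (50.7% and 35.6%), against 34.5% and 55.1% of all tested probe sets. Of the 57 bright on both sides 27 were higher and 22 lower (47.4% and 38.6%), against the shares given above for all such probe sets. Zwint, a kinetochore protein, measured 10.79 and 10.89 in KD mutant cells and 5.42 and 5.38 in wild-type cells, and Smc2, a condensin subunit, measured 7.48 and 7.51 in KD mutant cells and 2.63 and 2.82 in wild-type cells. Cenpk, another kinetochore protein, and Cdca3 were higher by 4.12 and 3.52. Of the wider regulator probe sets 21 were higher and 22 lower (41.2% and 43.1%), against the same 34.5% and 55.1%. Of the 41 bright on both sides 14 were higher and 19 lower (34.1% and 46.3%). Ccng1, a p53 target, measured 12.63 and 12.81 in KD mutant cells and 4.81 and 4.87 in wild-type cells, a difference of 7.88. Mdm2, which degrades p53, was higher on 2 probe sets (4.50 and 3.23) and lower on 1383485_at (-0.85). Cdk7, which activates cell cycle kinases, was higher by 4.02, and Lin54, which binds CHR elements, by 3.76.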

How the data were processed

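Total RNA was hybridised to Affymetrix rat arrays, 10 in all, and the deposited log2 values were made by the authors with RMA, per the submitters' processing notes, which state no version or settings. RMA compresses differences of dim probe sets. Precision is limited by the small number of arrays. Genes were taken from the platform annotation, with symbols updated through RefSeq (20764 of 20826 single-gene probe sets matched by Entrez ID). Control probe sets (57) were left out. Probe sets at or above the 40th percentile (log2 4.82) on at least 2 arrays were tested (22502). A limma 3.58.1 model (R 4.3.3) was fitted to all 10 arrays with 5 group means, 9 comparisons were drawn from it, and two-sided p-values were adjusted by Benjamini-Hochberg over all tested probe sets, with 0.05 as the threshold. The fit was tested on simulated data. Any member could be named; array values were given for calls without the KD mutant arrays, the 5 largest rises and 5 largest falls of KD mutant against wild type, the brightest member of each class, and, from each wider list, up to 4 genes with the lowest adjusted p there. Other members with array values were chosen after their values were seen. Members and lists were chosen with earlier results of these data known. Alternatives changed the filter, scaling, variance model, replicate block, arrays and probe sets used.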

Additional observations from a re-analysis of the deposited data

How the results depend on the processing

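Over the 9 comparisons and their alternatives, the count of member probe sets called stayed within 1.5 times in 117 of 119 cases. This says little of stability. The main count was 0 in the 6 comparisons without KD mutant cells, and 0 against 0 was counted as within. With KD mutant cells most of the array was called, and the split into higher and lower moved with scaling, as given above. The exceptions were the fits with an intensity trend and robust variance, which called 1 member (Ccnb1) for CD mutant against empty vector and 1 member (Ccnd1) for ED mutant against empty vector, against 0 in each. Leaving out 1 array gave 0 members in each of the 6 comparisons without KD mutant cells, 29 to 41 for KD mutant against wild type, 29 to 38 against empty vector and 31 to 43 against the other 4 groups. The replicate numbers did not pair the arrays: correlations of deviations between same-numbered arrays ran from -0.029 to 0.143 with a median of 0.025. With the replicate block the counts were 42, 40 and 43 for the 3 KD mutant comparisons and 0 for the other 6. Class medians moved beyond the spread between replicates in 45 cases and not in 162. In 4 of the 45 the median also changed sign: after quantile normalization replication was -0.03 (from deposited values 0.63) for KD mutant against wild type, and G1/S was -0.07 (0.23) against empty vector and -0.02 (0.25) against the other 4 groups; without ED mutant replicate 2, G1/S was -0.01 (0.07) for ED mutant against empty vector. The causes were not tested. Over all tested probe sets the calls for ED mutant against empty vector were 119, against 320 without the KD mutant arrays and 493 under the trend and robust fit, and for CD mutant against empty vector 25, 43 and 144.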
